A study of Mus musculus with 2 samples.

Results

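Cluster 12 was a group of 268 cells among the 9159 that carry a cluster in the annotation deposited for the series, 78 of 3829 in mouse 1 and 190 of 5330 in mouse 2. Its members were every cell with that cluster number, in the tumors of both mice. All cells came from MMTV-PyMT mice, in which a viral promoter active in the mammary epithelium drives the polyoma middle T oncogene, that also carried Krt8-CreERT and the Rosa26-mTmG reporter. Tamoxifen at 150 mg/kg on 6 days, in weeks 5 and 6 of age, activated the recombinase in cells that made Krt8 and turned them and their descendants green. Tumors of 1.5 cm3 were digested for 2 hours, live GFP+ cells without CD31 and CD45 were sorted, and 1 library of 3' tags was made from each mouse. Both mice had the same genotype and treatment, so the series holds no untreated or wild-type group, and cluster 12 was set against all other annotated cells and against cluster 0, the largest cluster, within each mouse. Marking with Krt8-CreERT follows only cells that made Krt8 at the time of tamoxifen. The comparisons ask which transcripts distinguished the cells of cluster 12 from the remaining Krt8-marked cells and from the cluster most like it.

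Heat shock proteins are chaperones that bind unfolded polypeptides and help them to refold or pass them on for degradation. The heat shock factor HSF1 turns on the inducible ones by binding arrays of the short sequence nGAAn in their promoters, and cells make them in response to heat, toxic agents or other stress on protein folding. Other members of the same families are made at all times or serve the endoplasmic reticulum or mitochondria. In the mammary gland, Krt8 and Krt18 form the keratin filaments of luminal cells, and Csn3 encodes the milk protein kappa-casein.

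The libraries held 63140346 and 61529883 unique molecular identifiers (UMIs, counted transcripts), and 20 barcodes occurred in both of them, 9 with annotation and 0 in cluster 12. Cluster 12 gave sums of 1088767 and 1385722 UMIs, against 57541139 and 55586922 for all other cells and 15193809 and 15588175 for cluster 0. Levels are given as counts per 1000000 UMIs of such a sum (CPM), mouse 1 before mouse 2. The median cell of cluster 12 held 13204 and 6614.5 UMIs, against 15059 and 9672 in the other cells, and 6.75% and 4.68% of its UMIs were mitochondrial, against 6.18% and 5.44%. The luminal progenitor score of the annotation was the highest of 3 signature scores in 73.1% and 67.9% of cluster 12 cells.

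The label genes were abundant in cluster 12 but did not set it apart from cluster 0. Krt8 had 6013 and 8054 CPM in cluster 12, against 4733 and 6463 CPM in the other cells and 7242 and 9642 CPM in cluster 0. For Krt18, the levels were 5606 and 7519.6 CPM in cluster 12, 4055 and 5988 CPM in the other cells and 5955 and 8271 CPM in cluster 0. Within each mouse cluster 12 was therefore above the other cells and below cluster 0 for both keratins, and it ranked 5 in mouse 1 and 3 in mouse 2 among the 18 clusters. Csn3 had 6474 and 7800.3 CPM in cluster 12, against 2783 and 4100.0 CPM in the other cells and 6026 and 6192 CPM in cluster 0. For Csn3 cluster 12 was the highest of the 18 clusters in mouse 1, and in mouse 2 only cluster 11 was above it (10778 CPM). Summed, the 3 genes reached 18094 and 23373 CPM, second in each mouse to cluster 0 with 19222 and 24104 CPM. In log2 units, Krt8 was higher than in the other cells by 0.50 ± 0.10, Krt18 by 0.57 ± 0.11 and Csn3 by 1.25 ± 0.11 (SE), and the differences from cluster 0, -0.15 ± 0.13, -0.00 ± 0.13 and 0.33 ± 0.13, did not pass the threshold (edgeR, adjusted p of 6.1e-05 for Krt8 against the other cells and of 0.11 for Csn3 against cluster 0). The clusters were drawn from these same values, so that such a p does not test whether the cluster exists. The p and the SE rest on a spread shared across genes, and do not measure how far the mice agree for a gene. The cluster is called by its number here, with no cell type name.

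**Figure D1:**
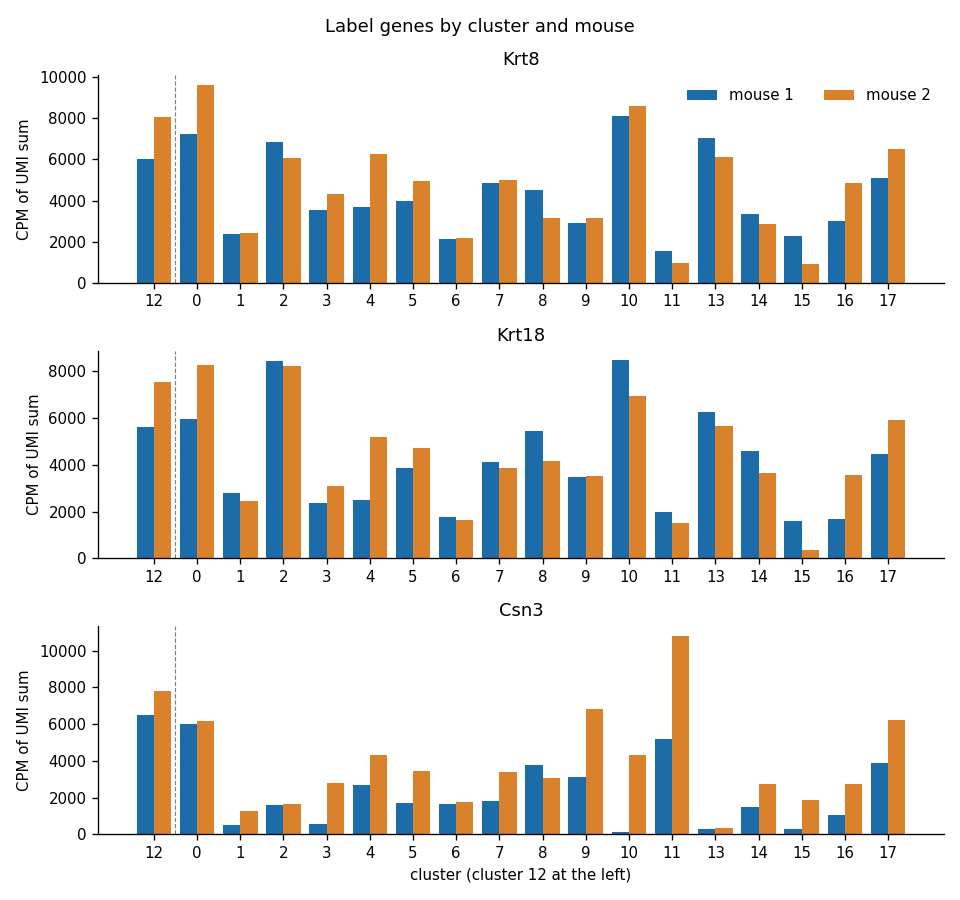
CPM of Krt8, Krt18 and Csn3 in the UMI sum of each cluster (bars, mouse 1 and mouse 2; cluster 12 at the left). Cluster 12 had 6013 and 8054 CPM of Krt8, and cluster 0 beside it had 7242 and 9642 CPM.

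Heat shock transcripts led cluster 12. Hspa1a (chr17:34969190-34972156 in GRCm38) and Hspa1b (chr17:34956436-34959238) encode the stress-inducible cytosolic HSP70. The stretch from 140 to 61 bases before the annotated start is shown for 4 genes of the heat shock list, because it holds the letters of the HSF1 repeat in each of them. Capitals mark GAANNTTC or TTCNNGAA, adjoining inverted repeats of the unit, and 4 sequences from RefSeq (GRCm38.p6) follow, 5′ to 3′ on the strand of the gene.
Hspa1a: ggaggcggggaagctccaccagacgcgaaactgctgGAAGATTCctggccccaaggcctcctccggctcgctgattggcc
Hspa1b: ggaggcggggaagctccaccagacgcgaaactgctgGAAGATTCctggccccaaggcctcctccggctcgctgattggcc
Hspb1: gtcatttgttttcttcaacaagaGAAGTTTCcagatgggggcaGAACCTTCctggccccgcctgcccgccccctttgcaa
Hspe1: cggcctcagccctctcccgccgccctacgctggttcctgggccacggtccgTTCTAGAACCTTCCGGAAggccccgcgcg
They lie at chr17:34972217-34972296 and chr17:34959299-34959378, both on the minus strand, and at chr5:135887779-135887858 and chr1:55088008-55088087, both on the plus strand. The Hspa1a and Hspa1b stretches are the same, and 247 of the 250 bases before their starts were identical (98.8%). Since the genes are near-identical copies, the split of tags between them is uncertain. Either repeat, read over 250 bases before the start and the same on both strands, was found for 6 of the 7 heat shock list genes with a RefSeq promoter (all but Dnajb1) and for 3932 of 27025 genes (14.5%). The longer GAANNTTCNNGAA or TTCNNGAANNTTC, each of which contains the shorter repeats, was found for Hspe1, for Hspd1 and for 139 genes in all (0.514%). Hspd1, which is not in the list, starts beside Hspe1 on the other strand, and the matches of both genes are the same bases. Of 9 other chaperone genes with a promoter, 3 held either repeat (Hspd1, Cct2 and Cct5, of which the Cct genes did not pass the test), as did 1 of 4 further genes among the 12 largest rises against the other cells (Gdf15) and 0 of 11 among the 12 largest falls. A match is a run of letters and not a shown binding site.

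Hspa1a had 3001 and 2735 CPM in cluster 12, against 216 and 213 CPM in the other cells and 75.4 and 68.0 CPM in cluster 0. Hspa1b had 4739 and 3159 CPM in cluster 12, against 404 and 303 CPM in the other cells and 236 and 139 CPM in cluster 0. In both mice cluster 12 lay far above either comparator, by 13.9- and 12.9-fold for Hspa1a over the other cells and by 39.8- and 40.2-fold over cluster 0. The fitted log2 differences were 3.91 ± 0.13 and 5.43 ± 0.16 for Hspa1a, and 3.64 ± 0.13 and 4.53 ± 0.15 for Hspa1b (SE; other cells, then cluster 0). Hspb1 (chr5:135887919-135889563), a small heat shock protein that holds unfolded proteins without ATP, had 8819 and 13655 CPM in cluster 12, against 2936 and 2560.4 CPM in the other cells and 3865 and 3365 CPM in cluster 0. Hspa8, the constitutive cytosolic HSP70, had 3737 and 4009 CPM, against 1253 and 1199 CPM and 1042 and 1051 CPM. For both genes cluster 12 was the highest of the 18 clusters in each mouse.

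All 10 genes of the heat shock list passed the test as higher in cluster 12 in both comparisons, where 5.17% of the 13997 genes tested were called higher against the other cells (11.0% in either direction) and 4.52% of 11492 against cluster 0 (7.82% in either direction). Their median log2 difference was 1.79 against the other cells and 1.84 against cluster 0, while the medians over all genes tested were -0.09 and -0.01. Summed, the list reached 31581 and 33297 CPM in cluster 12, 11326 and 9723 CPM in the other cells and 11276 and 9736 CPM in cluster 0. The HSP70 partners Dnajb1, a J-domain protein, and Hsph1, an exchange factor, were higher by 1.74 ± 0.16 and 1.88 ± 0.16 in log2 units against the other cells and by 1.97 ± 0.16 and 2.45 ± 0.16 against cluster 0. Smaller differences were measured for the cytosolic HSP90 genes Hsp90aa1 (1.38 ± 0.12 and 1.23 ± 0.14) and Hsp90ab1 (0.72 ± 0.11 and 0.78 ± 0.13), and for Hspe1, the mitochondrial co-chaperonin (0.77 ± 0.14 and 1.24 ± 0.15). In each mouse alone all 10 genes were higher than in the other cells, between 1.42-fold for Hspe1 and 13.9-fold for Hspa1a, both in mouse 1. Without the mouse block 2 of the 10, and 4 of all genes tested, passed in each comparison, so that every count of called genes here rests on that block. With 1 of the 4 sums left out and no block, 1 passed without either mouse's cluster 12 sum, and 8 and 3 passed without the other cells' sum of mouse 1 and of mouse 2 (6 and 3 without the cluster 0 sums).

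**Figure D2:**
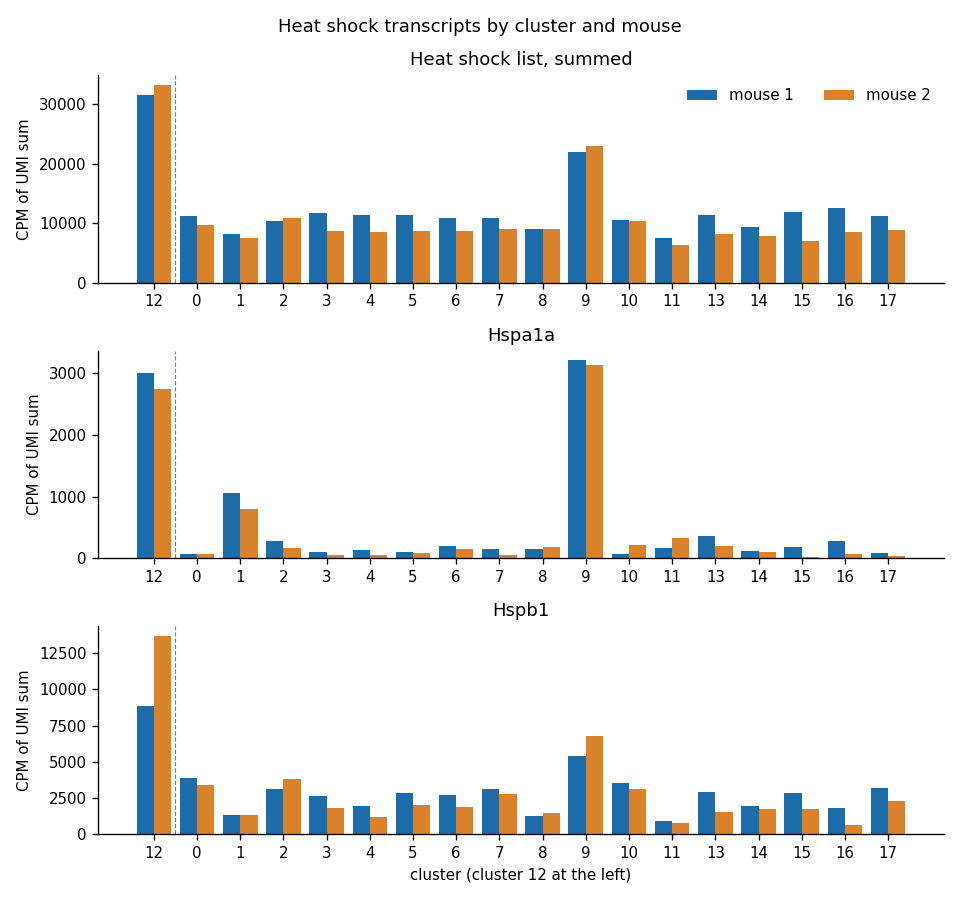
CPM of the summed heat shock list, of Hspa1a and of Hspb1 in the UMI sum of each cluster (bars, mouse 1 and mouse 2; cluster 12 at the left). The list reached 31581 and 33297 CPM in cluster 12 and 22019 and 23039.5 CPM in cluster 9, the next highest, and Hspa1a was higher in cluster 9 in each mouse.

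Cluster 9 also held heat shock transcripts, with 22019 and 23039.5 CPM of the list, and its Hspa1a level of 3202 and 3124 CPM was above that of cluster 12 in each mouse. In mouse 2, Dnajb1 had 382 CPM in cluster 9 and 332 CPM in cluster 1, above the 275 CPM of cluster 12. Hsph1 had 178 CPM in cluster 9 and 172 CPM in cluster 12 of that mouse. The difference between clusters 12 and 9 was not tested. Their levels lay far apart in the immediate early genes, which mostly encode transcription factors made soon after a stimulus. Summed, this list had 7136 and 8984 CPM in cluster 12, against 26127 and 32834 CPM in cluster 9. Fos, the partner of Jun in AP-1, had 219 and 299 CPM in cluster 12 and 5116 and 8008 CPM in cluster 9. Leaving cluster 9 out of the other cells, an alternative chosen after the data were seen, kept all 10 heat shock genes past the threshold.

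The rise in heat shock transcripts was shared by nearly all cells of cluster 12. Each cell was thinned to 2000 UMIs, which left out 14 shallower cells of cluster 12 in mouse 2 and 0 in mouse 1. After thinning 3259 of 3751 and 4297 of 5140 other cells remained. The list counted a median of 60.5 and 64 UMIs per cell in cluster 12, against 21 and 17 UMIs in the other cells and 21 and 18 UMIs in cluster 0. Cluster 12 cells ranged from 27 to 291 UMIs in mouse 1 and from 17 to 186 UMIs in mouse 2. At or below the median of the other cells lay 0 of 78 and 1 of 176 cluster 12 cells (0% and 0.568%). Of the other cells, 1.41% and 1.95% reached the median of cluster 12. Cells were placed in clusters by these same expression values, so that the small overlap and the shares below are no separate support. At least 1 UMI of Hspa1a or Hspa1b was found in 98.7% and 98.3% of cluster 12 cells (exact Clopper-Pearson 95% intervals 93.1 to 99.97% and 95.1 to 99.6%), in 45.0% and 32.7% of the other cells and in 35.5% and 25.7% of cluster 0 cells. Without thinning it was found in 78 of 78 and 189 of 190 cells of cluster 12, against 77.3% and 63.9% of the other cells. In 18 and 147 unannotated barcodes that held UMIs of at least 3 leukocyte genes, the share with Hspa1a or Hspa1b after thinning was 33.3% and 17.01%. Krt8 was found in 5.56% and 30.6% of these barcodes. Free RNA and transcripts made by the cells in them cannot be told apart in these shares. Their median depths were 6642.5 and 4355 UMIs before thinning, against 13204 and 6614.5 UMIs in cluster 12. Intervals cover counting error only.

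**Figure D3:**
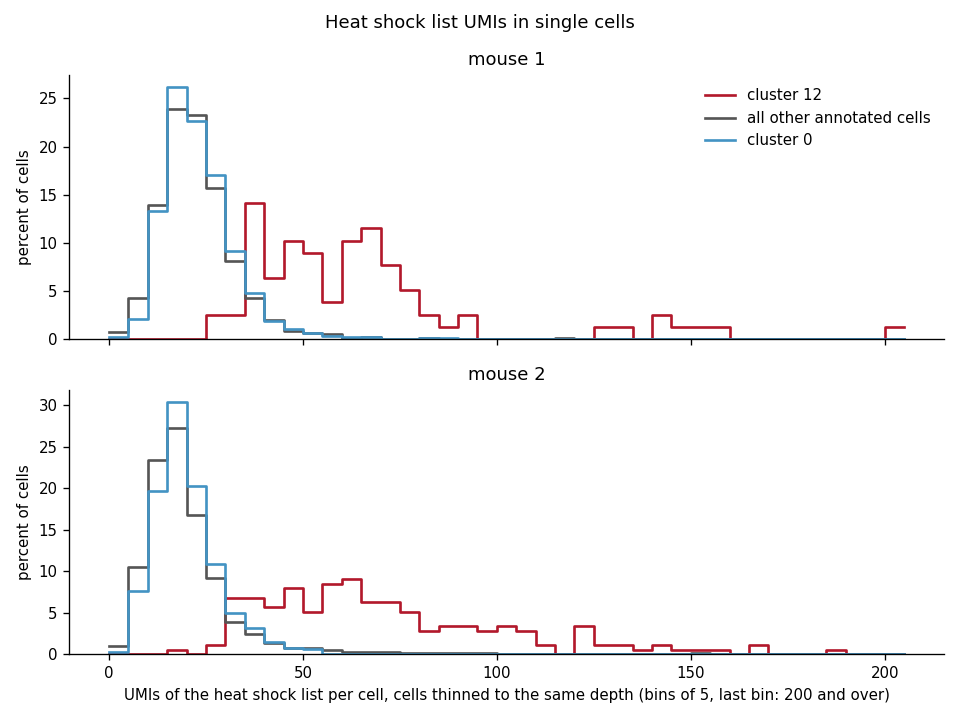
Share of cells (percent) by UMIs of the heat shock list per cell after thinning to 2000 UMIs, in bins of 5 with the last for 200 and over, for cluster 12, all other annotated cells and cluster 0. Cluster 12 medians were 60.5 and 64 UMIs, against 21 and 17 UMIs in the other cells.

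Across cells of cluster 12, Hspa1a and Hspa1b UMIs and those of the other heat shock list genes had a Pearson r of 0.616 over 78 cells of mouse 1 and 0.239 over 176 cells of mouse 2, with Spearman rho of 0.314 and 0.254. With the UMIs of Krt8 and Krt18 r was 0.145 and -0.0148, and with the depth of the cell -0.0415 and -0.180. These are descriptions across cells of 1 library each, in sparse counts.

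Whole chaperone families, taken after the values were seen, moved only in part. Of the HSP70 family 5 of 10 tested members were called higher than in the other cells and 0 lower, and 5 of 9 higher than in cluster 0: Hspa1a, Hspa1b, Hspa8, Hspa2 and Hspa5. Hspa5, the HSP70 of the endoplasmic reticulum, differed by 0.65 ± 0.13 and 0.54 ± 0.14 in log2 units, and the mitochondrial Hspa9 by -0.22 ± 0.16 and -0.12 ± 0.16, which did not pass. Of the HSP40 genes 4 of 39 were higher than in the other cells and 2 lower, where 5.17% and 5.84% of all genes were called. Against cluster 0, 4 of 36 HSP40 genes were higher and 1 lower, where 4.52% and 3.30% of all genes were called. Those higher than in the other cells were Dnajb1, Dnaja1, Dnajb4 and Dnajb9, the last a factor of the endoplasmic reticulum, with Dnajb4 at 76.2 and 88.8 CPM in cluster 12, 31.9 and 38.9 CPM in the other cells and 27.1 and 38.3 CPM in cluster 0. Cryab, the small heat shock protein alpha-B-crystallin, had 221 and 401 CPM in cluster 12, against 48.5 and 66.7 CPM and 32.4 and 71.1 CPM, a log2 difference of 2.57 ± 0.16 and 2.74 ± 0.16. Cluster 6 had more Cryab than cluster 12 in each mouse, with 405.5 and 448.4 CPM. Bag3, which releases clients from HSP70 and sends them to autophagy, was the only 1 of 6 BAG genes to pass, by 1.11 ± 0.17 and 1.21 ± 0.17. In either direction 11.0% of all genes were called against the other cells and 7.82% against cluster 0.

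The mitochondrial chaperonin gene Hspd1 had 381 and 375 CPM in cluster 12, against 297 and 282 CPM in the other cells and 221 and 218 CPM in cluster 0, and passed as higher in both comparisons (0.56 ± 0.15 and 0.89 ± 0.15), like its partner Hspe1. Of the 3 HSP110 genes, Hsph1 and Hspa4l passed (1.14 ± 0.21 and 0.88 ± 0.20 for Hspa4l), and Hspa4 did not (0.14 ± 0.15 and -0.05 ± 0.15). Of the 8 subunits of TRiC, the chaperonin that folds actin and tubulin, 0 passed in either comparison. In either direction 11.0% and 7.82% of all genes were called (other cells, then cluster 0), so that 0 of 8 is near those shares. The log2 differences of the subunits lay between -0.21 and 0.28 against the other cells. The highest of these differences belonged to Cct4, with 239 and 205 CPM in cluster 12, 246 and 171 CPM in the other cells and 234 and 176 CPM in cluster 0. Hsp90b1, the HSP90 of the endoplasmic reticulum, had 390.4 and 359 CPM in cluster 12, against 396 and 353 CPM in the other cells and 378 and 301 CPM in cluster 0, a difference that did not pass (0.17 ± 0.14 and 0.26 ± 0.15). Of the heat shock factor genes 0 of 3 and 0 of 2 tested passed, which is also near the shares over all genes. Hsf1 had 23.0 and 19.5 CPM in cluster 12, 21.6 and 19.4 CPM in the other cells and 21.7 and 20.6 CPM in cluster 0.

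**Figure D4:**
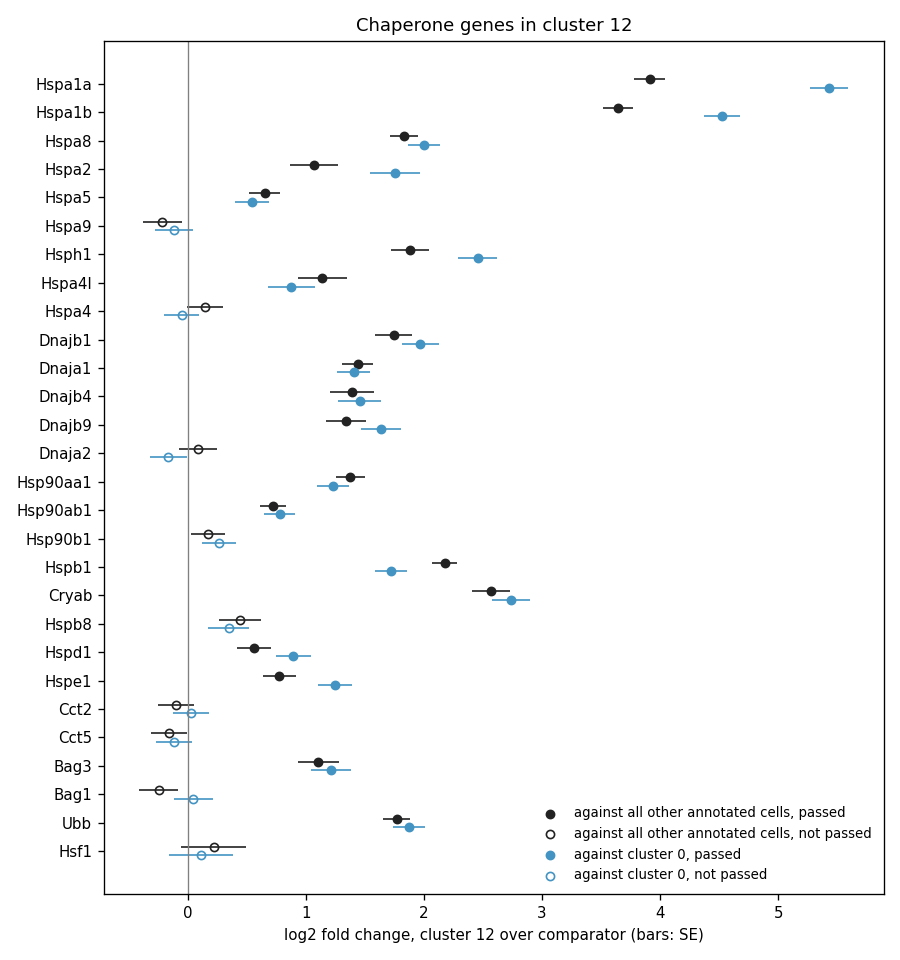
Log2 fold change of cluster 12 over all other annotated cells (black) and over cluster 0 (blue) for chaperone and related genes, with bars for the SE and filled points for an adjusted p under 0.05. Hspa1a lay at 3.91 ± 0.13 and 5.43 ± 0.16, and Hspa9, Hspa4, Dnaja2, Hsp90b1, Hspb8, Cct2, Cct5, Bag1 and Hsf1 had open points in both comparisons.

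The polyubiquitin gene Ubb, which encodes ubiquitin repeats that are cut into single units and attached to proteins, also rose. Ubb had 5464 and 3996 CPM in cluster 12, against 1527 and 1564 CPM in the other cells and 1379 and 1379 CPM in cluster 0. It was highest in cluster 12 of all clusters in each mouse, with log2 differences of 1.77 ± 0.11 and 1.87 ± 0.14. Of 37 tested proteasome subunits 0 were higher than in the other cells and 3 lower (Psma7, Psmb9 and Psmd14), near the 5.84% of all genes called lower. Against cluster 0, 0 of the subunits passed in either direction, where 7.82% of all genes did. Yod1, a deubiquitinase, was higher by 2.03 ± 0.18 than in the other cells.

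The 12 largest rises against the other cells also held Gdf15, a stress-induced cytokine of the TGF-beta family, Amtn, an enamel matrix protein, and Yod1. Gdf15 had 56.9 and 45.5 CPM in cluster 12, against 14.1 and 5.74 CPM in the other cells and 4.80 and 4.36 CPM in cluster 0. Its levels did not overlap, which the choice of the largest rises favours, and the log2 differences were 2.66 ± 0.25 and 3.58 ± 0.28. Amtn differed between the mice, at 257 and 88.8 CPM in cluster 12 and 132 and 9.07 CPM in the other cells, which is 1.95-fold in mouse 1 and 9.79-fold in mouse 2. Against cluster 0, the list of largest rises also held Mgp, a matrix protein, with 81.7 and 42.6 CPM in cluster 12 and 18.03 and 10.6 CPM in cluster 0, though it was lower than in the other cells (309 and 52.0 CPM), and Ecrg4, a secreted peptide precursor, with 64.3 and 92.4 CPM in cluster 12 and 16.8 and 20.4 CPM in cluster 0.

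Genes of other stress responses were mixed. In the list of the unfolded protein and integrated stress responses, 4 of 13 genes were higher than in the other cells (Hspa5, Calr, Atf4 and Dnajb9). In the same comparison 1 was lower (Asns), where 5.17% of all genes were called higher and 5.84% lower. Against cluster 0, 3 of 12 were higher, where 4.52% of all genes were called. Hmox1, the enzyme that breaks down heme, had 270.0 and 136 CPM in cluster 12, against 151 and 91.6 CPM in the other cells and 174 and 116 CPM in cluster 0. Metallothioneins went the other way against the other cells: Mt2 had 26.6 and 44.7 CPM in cluster 12 and 92.3 and 209 CPM in the other cells, but 25.3 and 68.2 CPM in cluster 0, and did not pass there (-1.87 ± 0.20 and -0.23 ± 0.21). Cdkn1a, the cell cycle inhibitor p21, and Mdm2, both targets of p53, were higher by 0.83 ± 0.14 and 0.84 ± 0.18 against the other cells and by 0.77 ± 0.14 and 1.03 ± 0.18 against cluster 0.

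Immediate early genes also split. Of 12 genes, 5 were higher and 3 lower than in the other cells, where 5.17% and 5.84% of all genes were called. Against cluster 0, 6 were higher and 2 lower, where 4.52% and 3.30% of all genes were called. Jund, an AP-1 subunit, had 2511 and 2687 CPM in cluster 12, against 1296 and 1318 CPM in the other cells and 1641 and 1494 CPM in cluster 0. Fosb, another AP-1 subunit, had 345 and 458 CPM in cluster 12, against 134 and 272 CPM and 88.5 and 128 CPM. Jun, Klf4 and Atf3 were higher in both comparisons too. Ier3, in contrast, had 908 and 927 CPM in cluster 12, 1589 and 1268 CPM in the other cells and 2046 and 1824 CPM in cluster 0, and Ier2 was lower in both comparisons (-0.81 ± 0.17 and -0.53 ± 0.17).

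Several chemokines were lower in cluster 12. Cxcl2 (chr5:90903871-90905938), a ligand of CXCR2 that draws neutrophils, was counted 2 and 3 times in cluster 12 (1.84 and 2.16 CPM), against 172 and 182 CPM in the other cells and 339 and 205 CPM in cluster 0. Cxcl1, a further CXCR2 ligand, had 1.84 and 23.1 CPM in cluster 12, 93.7 and 164 CPM in the other cells and 129.5 and 132 CPM in cluster 0. No value of cluster 12 reached the range of the comparators for either gene, which the choice of the largest falls favours. The log2 differences were -6.28 ± 0.33 and -6.90 ± 0.31 for Cxcl2 and -3.23 ± 0.24 and -3.23 ± 0.24 for Cxcl1. Low levels were not particular to cluster 12, since cluster 11 had 1.22 and 0.867 CPM of Cxcl2 and 1.22 and 25.1 CPM of Cxcl1. For the summed CXC and CC chemokine genes cluster 12 ranked 15 and 12 of the 18 clusters. Highest were cluster 10 in mouse 1 (1687 CPM) and cluster 6 in mouse 2 (5155 CPM). Of the CXC and CC chemokine genes tested, 7 of 20 were lower than in the other cells and 1 higher (Cxcl16), where 5.84% of all genes were called lower. Against cluster 0, 3 of 12 were lower (Cxcl1, Cxcl2 and Cxcl5) and 1 higher (Ccl6, counted 17 and 2 times in cluster 12), where 3.30% of all genes were called lower.

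Areg, a ligand of the EGF receptor and a target of estrogen receptor signalling, had 106 and 28.9 CPM in cluster 12, against 649 and 306 CPM in the other cells and 361 and 233 CPM in cluster 0. The EGF receptor genes themselves, Egfr, Erbb2 and Erbb3, did not pass in either comparison, and neither did the ligand Hbegf, with 738 and 701 CPM in cluster 12, 859 and 600.5 CPM in the other cells and 1065 and 723 CPM in cluster 0. Against cluster 0, Csf3, the cytokine G-CSF, was lower (242 and 306 CPM in cluster 12, 1104 and 677 CPM in cluster 0), as were Ccn2, a matricellular target of YAP (75.3 and 90.2 CPM against 413 and 230.3 CPM), and Edn1, endothelin (17.5 and 20.2 CPM against 57.9 and 67.2 CPM). For Areg, Csf3, Ccn2 and Edn1 cluster 12 and cluster 0 did not overlap. They were named for large falls of the same sign in both mice, so this is no separate support. Smr3a and Scgb1b27, which encode secreted proteins, were nearly uncounted in cluster 12 (4 and 0 UMIs of Smr3a, 0 and 3 UMIs of Scgb1b27), but their levels in the other cells differed between the mice, with 230.0 and 34.5 CPM of Smr3a and 6.27 and 339 CPM of Scgb1b27.

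**Figure D5:**
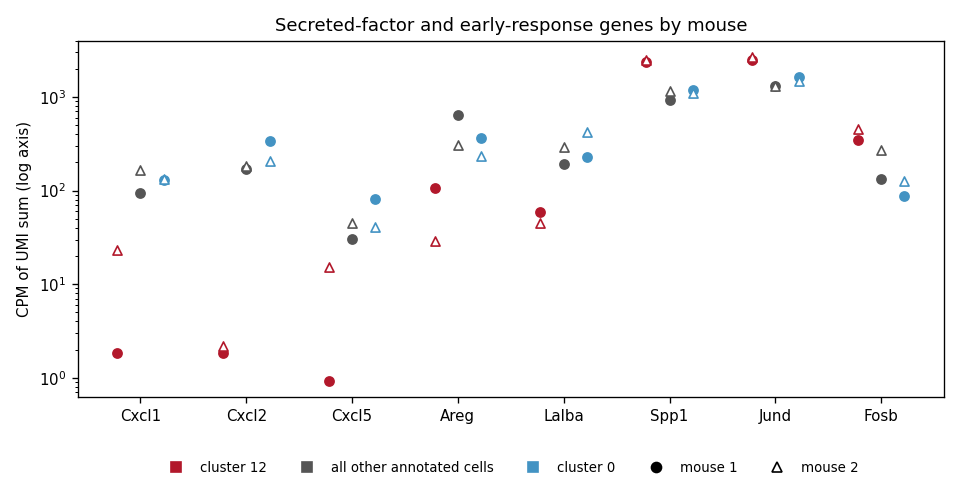
CPM on a log axis of 8 genes in the UMI sums of cluster 12, of all other annotated cells and of cluster 0 (circles for mouse 1, triangles for mouse 2). Cxcl2 stood at 1.84 and 2.16 CPM in cluster 12 and at 172 and 182 CPM in the other cells. Spp1, Jund and Fosb were higher in cluster 12 than in either comparator.

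Milk protein genes did not rise together. Lalba, the alpha-lactalbumin of lactose synthesis, had 59.7 and 44.7 CPM in cluster 12, against 193 and 290.2 CPM in the other cells and 227 and 422 CPM in cluster 0, and passed as lower in both comparisons. Spp1, osteopontin, had 2349 and 2463 CPM in cluster 12, against 935 and 1156 CPM and 1194 and 1102 CPM, and passed as higher in both. Cluster 6 had far more Spp1, with 6811 and 6701 CPM. Csn1s1, an alpha-casein, went in opposite directions in the mice, with 112 and 5.05 CPM in cluster 12 and 24.6 and 27.3 CPM in the other cells, although the fit called it higher (0.96 ± 0.22). Csn2, beta-casein, was counted 68 and 0 times in cluster 12 (62.5 and 0 CPM), against 1.49 and 3.26 CPM in the other cells, so that its call as higher in both comparisons rested on mouse 1. Of 11 genes of the list 5 were called higher and 2 lower than in the other cells, where 5.17% and 5.84% of all genes were called. Against cluster 0, 2 were higher and 2 lower, where 4.52% and 3.30% were called.

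Among luminal genes, Gata3, a transcription factor of the luminal lineage, was higher in both comparisons (1.06 ± 0.16 and 1.10 ± 0.16), at 259 and 179 CPM in cluster 12, 146 and 93.2 CPM in the other cells and 142 and 82.1 CPM in cluster 0. The mucin gene Muc1 was higher than in the other cells (1.19 ± 0.17) but did not pass against cluster 0 (0.17 ± 0.16). Of 12 pan-luminal genes 8 were higher than in the other cells and 0 lower, against 1 higher and 2 lower (Krt7 and Cldn4) with cluster 0. Of 11 luminal progenitor genes 4 were higher than in the other cells (Csn3, Ltf, Aldh1a3 and Ehf), and of 11 mature luminal genes 6 were lower and 0 higher, where 5.17% of all genes were called higher and 5.84% lower. Against cluster 0, 1 of 11 luminal progenitor genes was higher (Ehf) and 2 lower, Aldh1a3 (-0.70 ± 0.18) and Wfdc18. Of 8 mature luminal genes 1 was higher (Esr1) and 2 lower (Ly6a and Areg), where 4.52% and 3.30% of all genes were called. Esr1, the estrogen receptor, had 70.7 and 123 CPM in cluster 12, 77.3 and 87.3 CPM in the other cells and 61.9 and 80.3 CPM in cluster 0, with a log2 difference that passed against cluster 0 only (0.38 ± 0.18 and 0.54 ± 0.18).

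Proliferation genes were lower than in the other cells. Mki67 had 1.84 and 14.4 CPM in cluster 12, against 19.99 and 55.2 CPM in the other cells and 3.03 and 2.37 CPM in cluster 0. Top2a, the topoisomerase of dividing cells, had 0.918 and 2.89 CPM in cluster 12, against 18.04 and 34.2 CPM and 1.91 and 1.22 CPM. Summed, the list had 102 and 113 CPM in cluster 12, against 2816 and 3006 CPM in cluster 16, the highest. Over the 17 other clusters the medians were 132 and 179 CPM, and cluster 12 ranked 12 and 11 of 18. Against the other cells 13 of 16 proliferation genes were lower and 0 higher, where 5.84% and 5.17% of all genes were called. Against cluster 0 the count was 0 of 11 lower and 2 higher (Mki67 and Pcna), where 3.30% and 4.52% were called. The call of Mki67 against cluster 0 rested on mouse 2, since it was lower in cluster 12 in mouse 1. Of 9 tested genes of the list of cyclins and cell cycle control, 2 were higher (Cdkn1a and Mdm2) and 2 lower (Ccnd1 and Cdkn2a) than in the other cells, and of 8 tested, 2 were higher and 0 lower than in cluster 0. Ccnd1, the G1 cyclin D1, was lower than in the other cells (-0.73 ± 0.16) and did not pass against cluster 0 (-0.02 ± 0.16).

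Basal and fibroblast genes depended on the comparator. Of 18 basal and myoepithelial genes 9 were lower and 2 higher than in the other cells, where 5.84% and 5.17% of all genes were called. Of 14 tested against cluster 0, 8 were higher and 0 lower, where 4.52% and 3.30% of all genes were called. Among the 8, Krt14 was higher in cluster 12 in mouse 2 only. Lmna, a nuclear lamin, and Igfbp5, which binds insulin-like growth factors, were the 2 that were higher in both. Lmna had 2189.6 and 2407 CPM in cluster 12, 1335 and 1222 CPM in the other cells and 1795 and 1485 CPM in cluster 0. Summed, the 18 basal and myoepithelial genes had 4776 and 5405 CPM in cluster 12, rank 3 of the 18 clusters in each mouse. This sum was 3743 and 2747 CPM in the other cells and 4114 and 3276 CPM in cluster 0. Sparc, a matricellular protein, had 37 and 11 UMIs in cluster 12 (34.0 and 7.94 CPM), against 186 and 70.1 CPM in the other cells and 5.53 and 1.92 CPM in cluster 0. The 13 fibroblast genes summed to 92.8 and 59.9 CPM in cluster 12, 454 and 188 CPM in the other cells and 26.9 and 15.5 CPM in cluster 0, with 8 and 6 of them at 0 in cluster 12, and their part in the basal result was not tested. Cells with UMIs of at least 3 genes of a fibroblast, endothelial, macrophage, T and NK cell or pan-leukocyte list were 0 of 78 and 3 of 190 in cluster 12. The 8 T and NK cell genes and the 6 B cell genes had 0 UMIs in cluster 12 in both mice, which allows up to 3 UMIs in each sum.

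Across 5622 genes, the profile of cluster 12 was most like that of cluster 0 in both mice (Pearson r of log2 levels across genes 0.965 and 0.951), followed by cluster 7 in mouse 1 (0.943) and cluster 10 in mouse 2 (0.922). Cluster 12 of mouse 2 and of mouse 1 were correlated at 0.939, below the value for clusters 12 and 0 within either mouse. Genes are not independent replicates, and these are descriptions.

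Between the mice, 107 of 1514 genes with at least 100 CPM in the higher mouse differed by at least 2-fold within cluster 12, 34 higher in mouse 2 and 73 higher in mouse 1. Krt14, a basal keratin, was counted 284 times in mouse 2 and 4 times in mouse 1 (205 CPM in mouse 2 and 3.67 CPM in mouse 1), a ratio of 55.8 (95% counting interval 21.5 to 206). In the other cells it had 86.7 CPM in mouse 2 and 52.8 CPM in mouse 1. Hp, the hemoglobin scavenger haptoglobin, was 11.9-fold higher in mouse 2 and Csf1, a macrophage growth factor, 5.26-fold. On the mouse 1 side stood Smr2 (56.6-fold), the carbonic anhydrase Car6 (22.9-fold) and Csn1s1 (22.2-fold). With 1 library from each mouse these differences have no replicate check.

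Both comparisons share the cluster 12 sums. In the fit of each comparison the spread was estimated from 1 residual degree of freedom and shared across genes, so that the p-value of a gene more variable than others of its level is too small.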

How the data were processed

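The cells are GFP+ tumor cells of 2 mice, 1 library each. Per the labels and the study's methods, the authors made the deposited UMI counts with Cell Ranger 6.0.1 on mm10. They removed doublets with scDblFinder, and low-quality cells by UMIs, genes detected and mitochondrial share. With Seurat they integrated and clustered both mice, and after lymphoid and myeloid clusters were removed they clustered the rest again. Their deposited annotation gives each cell's cluster, its mitochondrial fraction and 3 signature scores as a fraction from 0 to 1; the score columns of distances deposited beside them were not used.

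Counts were summed by mouse and cluster, and the sums were tested with the quasi-likelihood test of edgeR 4.0.16 (limma 3.58.1, R 4.3.3) after filtering of low counts and TMM scaling, blocked on mouse, with p-values adjusted after Benjamini and Hochberg across every gene tested (threshold 0.05). Both sums of a mouse come from the same animal, and the mouse deviations of cluster 12 and the comparator were correlated (r = 0.427 for the other cells, 0.508 for cluster 0). The 37 gene lists and all comparisons were chosen with earlier results of these data known, and 12 gene families were added after values were seen. Genes named are the label genes, the 12 largest rises and falls of each comparison among called genes of at least 50 CPM with the same sign in both mice, leading members of each list, other listed genes with their values, and the largest differences between the mice. Alternatives were DESeq2 1.42.0, other scaling, no filter, no block, thinned cells, a fold of 1.5, other comparators and sums left out. Promoters came from RefSeq (GRCm38.p6) and gene positions from GENCODE vM21. Some genes that the rule would name are not reported here.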

Additional observations from a re-analysis of the deposited data

How the results depend on the processing

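Main counts were 1541 genes against the other cells (723 higher, 818 lower) and 899 against cluster 0 (520 higher, 379 lower). DESeq2 called 427 (312 higher, 115 lower) and 194 (145, 49), and a test against a fold of 1.5 called 284 (106, 178) and 156 (110, 46). Cells thinned to 2000 UMIs gave 298 (163, 135) and 73 (50, 23), with 10381 and 7630 genes tested. Without the replicate block 4 genes passed in each comparison (3 higher, 1 lower), and 2 of the 10 heat shock genes in each. Leaving out 1 of the 4 sums, with no block possible, gave 1 to 70 genes against the other cells (1 to 23 higher, 0 to 47 lower; heat shock list 1 to 8) and 1 to 23 against cluster 0 (1 to 17 higher, 0 to 6 lower; heat shock list 1 to 6). Scaling by library size only, added after the data were seen, moved the median of all genes to -0.26 and -0.12 (from -0.09 and -0.01) and gave 426 higher and 1588 lower against the other cells and 295 higher and 514 lower against cluster 0. Of the called genes, 1504 of 1541 against the other cells and 877 of 899 against cluster 0 had the sign of the fit in both mice. Gene by gene, the alternatives were followed only for the label genes, the largest rises and falls, the heat shock list and some further genes. No called value of these genes reversed. Outside the sums left out, 655 values were unchanged, 100 kept the direction and no longer passed, 3 newly passed and 18 moved. For a tested value, unchanged means the same side of the threshold, with the direction kept if it was called. Values with no test were unchanged if within the SD of the 2 mice or, for shares of cells, within the counting interval. With a sum left out, many called values kept the direction and no longer passed. With a mouse left out, 22 values moved further than that SD. Thinning and sums left out changed the number of genes tested; the cause of the other differences was not tested. Leaving out a whole mouse leaves values with no test. With 2 mice and sums of 1088767 and 1385722 UMIs, 1 UMI is worth 0.918 CPM in cluster 12 of mouse 1, which limits genes of low level.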

Other observations

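The nuclear long noncoding RNAs Malat1 and Neat1 were higher in cluster 12 in both comparisons. Malat1 had 19362 and 35727 CPM in cluster 12, against 13947 and 23376 CPM in the other cells and 15548 and 23116 CPM in cluster 0, and Neat1, the scaffold of paraspeckles, had 3933 and 4925 CPM, against 2355 and 3041 CPM and 2262 and 3046 CPM. Vegfa, the endothelial growth factor, was higher by 0.62 ± 0.16 and 0.57 ± 0.16 in log2 units (SE; other cells, then cluster 0). Of 12 tested genes of the glycolysis and hypoxia list 3 were higher and 4 lower than in the other cells, and 2 higher and 0 lower than in cluster 0. In the acute phase and innate defence list 5 of 15 genes were higher and 2 lower than in the other cells, and 5 of 14 higher and 3 lower than in cluster 0. Beside both lists, 5.17% of all genes were called higher and 5.84% lower than in the other cells, and 4.52% and 3.30% against cluster 0. Hp was called higher in both comparisons but was higher in cluster 12 in mouse 2 only. Saa1, serum amyloid A, had 423 and 810.4 CPM in cluster 12, against 183 and 608 CPM in the other cells and 281 and 489 CPM in cluster 0.

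Of 18 cytosolic ribosomal protein genes 0 passed in either comparison (edgeR), where 11.0% and 7.82% of all genes were called in either direction. Their log2 differences ran from -0.09 to 0.27 against the other cells. Scd1, a fatty acid desaturase, was called lower in both comparisons, though mouse 1 hardly differed from the other cells, with 209 and 292 CPM in cluster 12, 225 and 1056 CPM in the other cells and 336 and 1149 CPM in cluster 0. B2m, the light chain of MHC class I, was called higher in both (0.62 ± 0.13 and 0.49 ± 0.14). Among barcodes without annotation, those with a mitochondrial share above every annotated cell (2311 and 1948 barcodes) had 240.3 and 205 CPM of Hspa1a, and the rest (35 and 260 barcodes) had 278 and 139 CPM.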
